A study of Mus musculus with 15 samples.

Results

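The comparison described here sets 3 mRNA-seq samples collected 45 min after Shield-1 removal against 5 control samples, which is 8 of the 15 samples of the series. Members were chosen by the sample titles, which give the time point or name the sample a control, and the tables were joined by gene identifier. All samples are NIH3T3 cells, an established line of mouse embryo fibroblasts, that stably express DD-sfGFP. This is a superfolder green fluorescent protein fused to a destabilizing domain (DD), an engineered mutant of the human FKBP12 protein. The control cells kept Shield-1 (S1), the small molecule that holds the DD folded. In the 45-min samples S1 was taken away by adding purified FKBP(F36V) protein to the medium, and the sources used here do not say whether control cells received that protein. The cells had been sorted by FACS for high GFP and are not described as a single clone. The remaining samples, collected at 135 min (3 samples) and 405 min (4 samples), entered the same statistical fit and are given where they place a 45-min value in time. The labels do not say that replicates came from separate cultures, so p-values measure the spread between these samples, which may be technical.

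A DD that loses its ligand unfolds in the cytosol and nucleus and is handed to the ubiquitin-proteasome system. Cells can answer unfolded protein through several transcriptional programmes: HSF1 drives chaperone genes, the unfolded protein response of the ER drives genes such as Hspa5 and Ddit3, and NRF2 drives antioxidant genes. The tumour suppressor p53 drives Cdkn1a, the gene of the cyclin-dependent kinase inhibitor p21, and Mdm2, the gene of the ubiquitin ligase that limits p53. BMP signalling through SMAD proteins drives the Id genes, which encode inhibitors of helix-loop-helix transcription factors, and the inhibitory SMADs that feed back on the same pathway.

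At 45 min the edgeR fit with group as its term called 0 genes at the genome-wide threshold, and DESeq2 on the same counts called 6. Cdkn1a was 2.66-fold higher, and the oxidative stress gene Osgin1 was 4.15-fold higher. Id3, Id2, Smad7, Hes1, Klf10 and Cebpd, all of which encode transcriptional regulators or signalling inhibitors, lay lower in each 45-min sample than in any control. The median difference was 0.01 for heat shock genes, 0.00 for proteasome subunits and 0.21 for genes of the ER unfolded protein response, against 0.02 for all tested genes.

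The promoters below belong to 3 of the leading genes and were picked because they hold letters that transcription factors of the p53 and SMAD families are known to bind. They are the 250 bases before a RefSeq transcript start, read 5′ to 3′ on the gene's own strand in GRCm38.p6, which is not the build of the deposited tables. Capitals mark the p53 half-site in Cdkn1a (chr17:29090729-29090978, plus strand, the first of 2 RefSeq start sites), CAGAC or its reverse complement in Id3 (chr4:136143572-136143821, plus strand) and GGCGCC in Id2 (chr12:25096093-25096342, minus strand).
Cdkn1a: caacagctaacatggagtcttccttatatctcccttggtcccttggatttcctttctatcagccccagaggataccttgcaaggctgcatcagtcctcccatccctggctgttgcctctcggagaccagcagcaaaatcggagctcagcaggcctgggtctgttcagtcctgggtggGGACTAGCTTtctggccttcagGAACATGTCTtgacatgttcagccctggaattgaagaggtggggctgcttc
Id3: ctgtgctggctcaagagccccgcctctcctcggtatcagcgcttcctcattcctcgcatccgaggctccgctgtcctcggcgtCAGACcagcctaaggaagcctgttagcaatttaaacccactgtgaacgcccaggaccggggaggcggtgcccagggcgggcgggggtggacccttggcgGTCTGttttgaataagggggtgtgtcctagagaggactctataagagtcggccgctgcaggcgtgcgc
Id2: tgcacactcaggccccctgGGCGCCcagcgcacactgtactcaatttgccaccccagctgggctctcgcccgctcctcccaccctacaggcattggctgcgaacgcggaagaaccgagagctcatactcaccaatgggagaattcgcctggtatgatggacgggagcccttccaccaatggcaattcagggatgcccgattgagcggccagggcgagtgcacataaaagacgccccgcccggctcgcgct

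In the Cdkn1a window the p53 half-sites began 73 and 51 bases before the start. Its other start site held 0 half-sites, and both Cdkn1a windows also held CAGAC once. Which of the 2 starts the deposited Cdkn1a entry uses was not tested. The windows of Osgin1, Sesn2, Phlda3, Smad6 and Klf6 held 0 matches of any of the 3 motifs. Over all 32851 promoter windows of RefSeq, each with 250 bases before and 50 after the start and read on both strands, 8.36% held a p53 half-site, 49.6% held CAGAC and 11.9% held GGCGCC. Among the tested p53 targets 20 of 25 genes had a window, and 9 of those genes, including Mdm2, held a half-site. That is 10 of the 27 windows of the 20 genes. Of 6 BMP targets with a window, 2 held CAGAC, Id3 and Grem1, and 3 held GGCGCC, Id2, Id4 and Grem1. A match describes letters and is not evidence that a factor was bound.

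Total counts ran from 6652539 in control replicate 3 to 30258404 in 45-min replicate 1, and 10276 of the 20207 genes had at least 1 count in every sample and were tested. Libraries differed in how their log2 CPM (counts scaled to a common library size) depended on the GC content of the transcript. Control replicate 2 and 45-min replicate 3 had slopes of -0.143 and -0.189 per 10 percentage points of GC, against -0.658 to -1.374 in the other 6 samples of the comparison, and these 2 libraries are called GC library set 2 below. Each group therefore has 1 library of set 2, and the others form set 1. The first principal component held 56% of the variance, and control replicate 3, the shallowest library, stood alone at its end. All 11 fibroblast markers of the list, among them Col1a1, Vim and Fn1, passed the filter, with differences between -0.11 and 0.22. Of the epithelial, endothelial, neural and muscle markers in the tables none passed it, and their highest level in any sample of the comparison was 3.81 CPM (Pecam1). Of the adipocyte markers, Adipoq had 0 counts throughout, and Fabp4 was at 3.59 to 18.5 CPM in the controls and 2.61 to 5.43 CPM at 45 min (-1.13, unadjusted p under 0.05). The hematopoietic markers Cd14 and Itgam passed the filter with overlapping levels of at most 4.87 CPM, and Ptprc was at or under 0.746 CPM.

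**Figure D1:**
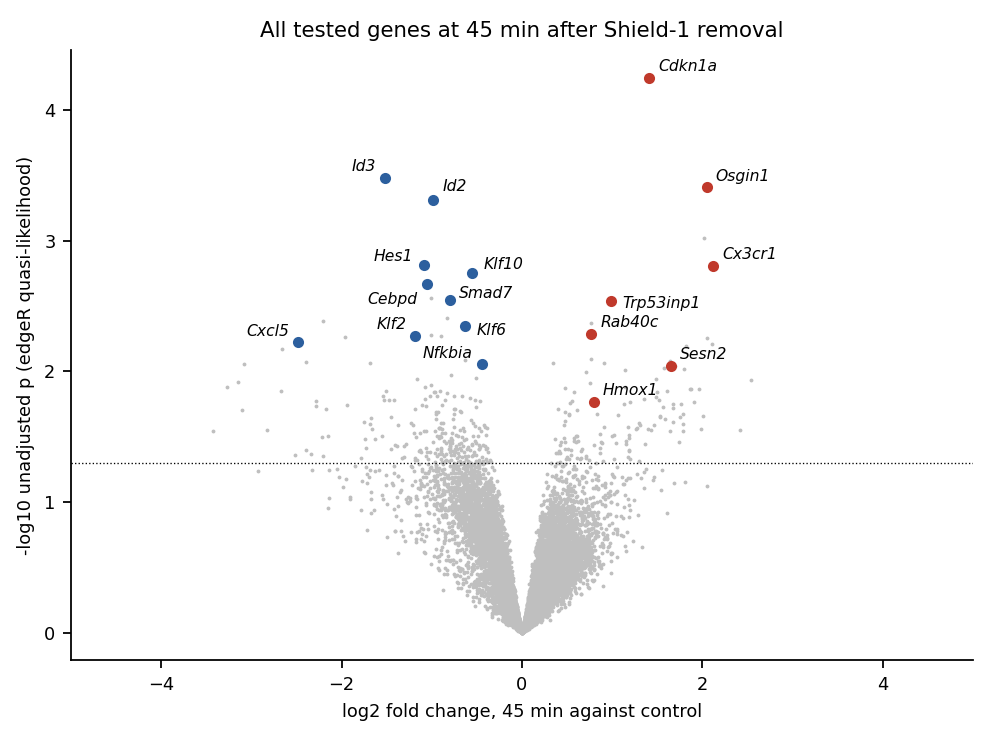
Each dot is 1 of the 10276 tested genes, with its log2 fold change at 45 min against control on the x axis and -log10 of its unadjusted p from the edgeR quasi-likelihood test on the y axis. The dotted line marks the unadjusted threshold, named genes are red where higher and blue where lower, and Cdkn1a lies topmost with an edgeR p of 5.69e-05 (0.585 after adjustment).

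With group as the term of the fit, the edgeR quasi-likelihood test called 0 genes higher and 0 lower at a Benjamini-Hochberg adjusted p under 0.05. At an unadjusted p under 0.05, 129 genes were higher, which is 1.26% of those tested, and 236 were lower, which is 2.3%. By its definition that threshold passes a share of about 0.05 of genes that do not differ, both directions together. In this fit both counts together stay under that share. All 3 samples lay above all 5 controls for 48 genes (0.467%) and below them for 46 genes (0.448%). Separation also arises among genes that do not differ, and its share by chance was not computed. DESeq2 on the same counts called 2 genes higher (0.0195%), Cdkn1a and Osgin1, and 4 lower (0.0389%), Id3, Klf10, Id2 and Hes1. With the GC library set as a second term, a fit added after the data were seen, edgeR called 3 genes higher (0.0292%), Cdkn1a, Osgin1 and Sesn2, and 1 lower (0.00973%), Id3. The common dispersion was 0.0487 with that term and 0.102 without it, and the unadjusted counts grew to 448 higher (4.36%) and 542 lower (5.27%). A GC correction of the counts, also added later, gave 2 genes higher, Cdkn1a and Osgin1, and 0 lower, with 160 (1.56%) and 261 (2.54%) at an unadjusted p under 0.05. Without control replicate 2 the unadjusted counts of the fit by group alone were 1668 and 1465, and the counts of separated genes were 981 above and 1115 below. Counts of separated genes can only stay or rise when a sample is left out. The lower count at an unadjusted p under 0.05 was 94 without control replicate 3 and 370 without control replicate 5. It was 96 without 45-min replicate 1 and 77 without 45-min replicate 3.

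Among 25 tested p53 targets, 18 had a positive difference and the median was 0.33, against 0.02 for all tested genes. At an unadjusted p under 0.05, 5 members were higher and 1 was lower, and 2 members, Cdkn1a and Plk2, lay above all controls. Over all tested genes 52.3% had a positive difference, 1.26% were higher and 2.3% lower at that p, and 0.467% lay above all controls. The mean log2 CPM over the list was 4.86, 4.96, 4.76, 4.67 and 5.0 in control replicates 1 to 5 and 5.11, 5.11 and 5.42 in 45-min replicates 1 to 3. The 45-min samples thus lay above every control on this mean. The median difference was 0.28 within GC library set 1 and 0.44 within set 2, where 1 library of each group is compared.

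Cdkn1a (chr17:29230717-29237667, mm9) had 20.1, 34.6, 25.1, 20.7 and 27.9 CPM in the controls and 59.0, 47.7 and 98.0 CPM at 45 min. The lowest 45-min sample was above the highest control, and the highest values of both groups came from the libraries of GC library set 2. The controls averaged 25.7 CPM ± 5.92 (SD, n = 5). The 45-min mean was 68.2 CPM ± 26.4 (SD, n = 3), and the log2 difference was 1.41 with a standard error (SE) of 0.25 and an adjusted p of 0.585. With the GC library set in the fit Cdkn1a was higher by 1.27 (SE 0.15, adjusted p = 0.00224), and within sets 1 and 2 the difference was 1.19 and 1.51. In that fit the adjusted p stayed under 0.05 without each of 7 libraries in turn and was 0.0557 without 45-min replicate 1.

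Sesn2, which encodes sestrin 2, a stress-inducible inhibitor of mTORC1 signalling and a target of both p53 and ATF4, had 4.35, 16.3, 2.25, 5.21 and 6.11 CPM in the controls and 13.0, 13.3 and 39.7 CPM at 45 min. The groups overlapped because of control replicate 2, whose GC library set also holds the highest 45-min sample. The difference was 1.66 (SE 0.55, adjusted p = 0.698) by group alone and 1.43 (SE 0.23, adjusted p = 0.0375) with the GC library set in the fit. By group alone it was 0.91 without 45-min replicate 3 and 2.26 without control replicate 2. That call was lost without control replicate 1 (adjusted p = 0.12), 2 (0.171) or 4 (0.097) and without 45-min replicate 1 (0.384), 2 (0.293) or 3 (0.106).

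Trp53inp1, a p53-induced nuclear protein linked to cell death and autophagy, had 9.99, 10.1, 5.03, 10.7 and 12.8 CPM in the controls. It had 11.4, 24.4 and 22.7 CPM at 45 min, so that 45-min replicate 1 lay within the control range. The difference was 0.99 (SE 0.28, adjusted p = 0.698). Mdm2 (chr10:117125961-117147772, mm9) ranged from 111 to 225 CPM in the controls and from 188 to 253 CPM at 45 min. Its difference was 0.44 (SE 0.19), and it overlapped with control replicate 3. With the GC library set in the fit the difference was 0.50 (adjusted p = 0.488), and without control replicate 3 it was 0.61 (adjusted p = 0.0494), the one alternative of 28 in which Mdm2 passed. Phlda3, an inhibitor of AKT signalling, differed by 1.18 (SE 0.59) and Zmat3, a zinc finger RNA-binding protein, by 0.55 (SE 0.24). The Phlda3 difference was 0.31 without 45-min replicate 3 and 1.95 without control replicate 2. These 2 genes were named after their values were seen. Fas, the death receptor, was the only member of the list with a negative difference at an unadjusted p under 0.05 (-1.02, SE 0.46), at 1.25 to 6.59 CPM in the controls and 0.959 to 2.21 CPM at 45 min. Within GC library set 2 its difference was 0.78.

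The count filter left 6 p53 targets untested. One of them, Btg2, encodes an antiproliferative protein and is also an immediate-early gene. It had 3.33, 5.63, 0, 3.45 and 5.78 CPM in the controls and 8.72, 13.1 and 18.1 CPM at 45 min. The 0 in control replicate 3, the shallowest library, removed it, and whether depth accounts for that 0 was not tested. The 45-min samples lay above all controls, and in the fit with no filter its difference was 1.79 with an adjusted p of 0.674. Atf3, a transcription factor induced by many stresses, was left out for the same reason and had 0 to 1.44 CPM in the controls and 1.48 to 2.98 CPM at 45 min. Both were chosen after their values were seen. They were the 2 of 70 untested list members whose 45-min samples lay above all controls, and 0 lay below. Among the tested genes 0.467% lay above and 0.448% below.

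**Figure D2:**
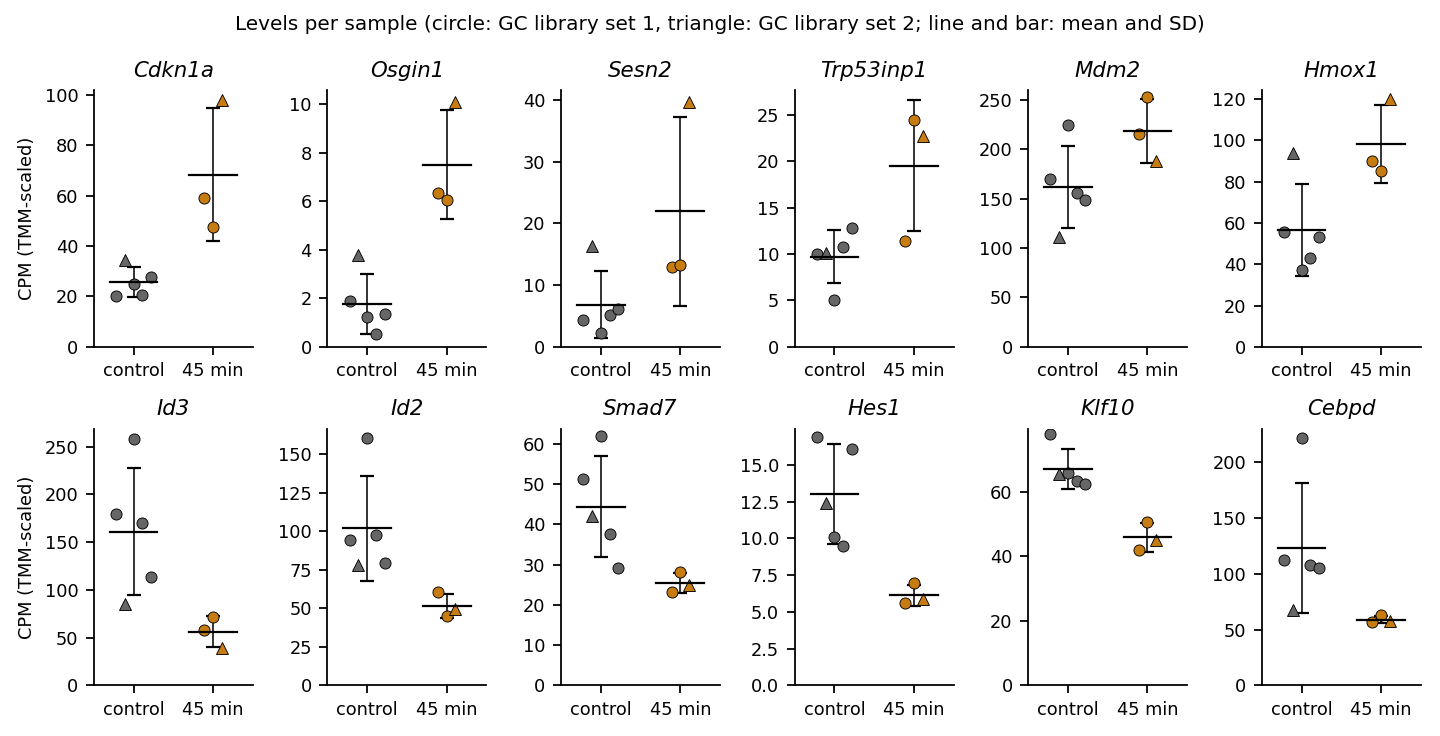
Levels of 12 genes in CPM scaled by TMM factors, with 5 control samples in grey and 3 samples at 45 min in orange. Circles are libraries of GC library set 1 and triangles those of set 2. The horizontal line is the mean and the bar the SD. The 45-min points of Cdkn1a and Osgin1 lie above all control points and those of Id3, Id2, Smad7, Hes1, Klf10 and Cebpd below them, while Sesn2, Trp53inp1, Mdm2 and Hmox1 overlap.

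Of 23 tested NRF2 targets, 19 had a positive difference and the median was 0.32, with 2 members higher and 0 lower at an unadjusted p under 0.05 and 1 above all controls. Among all tested genes 52.3% had a positive difference, 1.26% were higher and 2.3% lower at that p, and 0.467% lay above all controls. The NRF2 target median within GC library set 2 was 0.14. Over this list the mean log2 CPM was 6.18, 6.95, 5.45, 6.1 and 6.35 in control replicates 1 to 5. It was 6.69, 6.44 and 7.11 in 45-min replicates 1 to 3, so the groups overlapped through control replicate 2. In both groups the library of GC library set 2 was the highest. Osgin1 (chr8:121961062-121970156, mm9), an oxidative stress-induced growth inhibitor, had 1.88, 3.79, 1.21, 0.541 and 1.35 CPM in the controls and 6.34, 6.07 and 10.1 CPM at 45 min. The groups did not overlap. The difference was 2.05 (SE 0.45, adjusted p = 0.698) by group alone and 2.03 (SE 0.30, adjusted p = 0.0207) with the GC library set. That call was lost without control replicate 5 (adjusted p = 0.0501) and without 45-min replicate 1 (0.296) or 2 (0.144). Hmox1, which encodes heme oxygenase 1, had 37.3 to 93.9 CPM in the controls and 85.1 to 120.0 CPM at 45 min, with overlap through control replicate 2 and a difference of 0.79 (SE 0.30). Gclm, the modifier subunit of the enzyme that starts glutathione synthesis, differed by 0.34 (SE 0.30), and by 0.11 without control replicate 3.

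The integrated stress response list, the genes downstream of ATF4, had 14 of 15 tested members with a positive difference and a median of 0.28. At an unadjusted p under 0.05, 3 members were higher, Sesn2, the amino acid transporter subunit Slc3a2 (0.41) and the asparagine synthetase gene Asns (0.42), and Cebpb was lower (-0.76). No member lay wholly above or below the controls. Among all tested genes 52.3% had a positive difference, and 1.26% were higher and 2.3% lower at that p. Sesn2 is counted in this list and among the p53 targets. Over the list the mean log2 CPM was 5.64, 6.12, 4.96, 5.57 and 5.67 in control replicates 1 to 5. It was 5.83, 5.69 and 6.34 in 45-min replicates 1 to 3, with overlap through control replicate 2. Here too the library of GC library set 2 was the highest in both groups.

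Zfand2a, a proteasome-associated zinc finger protein induced by proteotoxic stress, had 26.7, 45.3, 34.3, 35.8 and 42.8 CPM in the controls and 56.0, 38.9 and 58.0 CPM at 45 min. The groups overlapped through 45-min replicate 2, and the difference was 0.46 (SE 0.19). Ubb, a polyubiquitin gene, had 141 to 212 CPM in the controls and 155 to 247 CPM at 45 min, a difference of 0.31 (SE 0.18).

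Among lists with at least 5 tested genes, the BMP targets had the most negative median, -0.75 over 9 genes. Of these, 8 had a negative difference, 4 at an unadjusted p under 0.05, and 3 lay below all controls. The same shares over all tested genes were 47.7%, 2.3% and 0.448%. The mean log2 CPM over the list was 4.64, 4.38, 4.97, 4.56 and 4.33 in control replicates 1 to 5 and 4.02, 4.06 and 3.83 in 45-min replicates 1 to 3. Each 45-min sample was under the lowest control. The median was -0.81 within GC library set 1 and -0.64 within set 2. In a population of cells, fewer cells that express a gene and less RNA per cell cannot be told apart.

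Id3 (chr4:135699737-135701307, mm9) had 179, 85.0, 258, 170.0 and 113 CPM in the controls and 57.7, 71.5 and 39.1 CPM at 45 min. The groups did not overlap, and the lowest value of each was again in GC library set 2. The difference was -1.52 (SE 0.33, adjusted p = 0.698) by group alone and -1.40 (SE 0.23, adjusted p = 0.0384) with the GC library set. That call was lost without control replicate 1 (adjusted p = 0.12), 2 (0.0709) or 4 (0.111) and without 45-min replicate 1 (0.626), 2 (0.293) or 3 (0.111). Within sets 1 and 2 the difference was -1.48 and -1.11.

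Id2 (chr12:25778664-25780957, mm9) had 94.7, 77.9, 161, 97.8 and 79.3 CPM in the controls and 60.3, 45.0 and 49.6 CPM at 45 min. The difference was -0.98 (SE 0.22), with no overlap. With the GC library set in the fit it passed the threshold without control replicate 3 (-0.74, adjusted p = 0.0283) and not with all libraries (adjusted p = 0.488). Smad7, an inhibitory SMAD that blocks BMP and TGF-beta receptors, had 51.2, 42.0, 61.9, 37.7 and 29.2 CPM in the controls and 23.2, 28.2 and 25 CPM at 45 min. It too did not overlap, and its difference was -0.80 (SE 0.22). The other inhibitory SMAD gene, Smad6, differed by -0.85 (SE 0.35) and overlapped with control replicate 2. Id1 differed by -0.45 (SE 0.25), and Smad6 and Id1 were named after their values were seen.

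Hes1 encodes a repressor induced by Notch and other signals. It had 16.9, 12.4, 10.1, 9.46 and 16.1 CPM in the controls and 5.58, 6.93 and 5.87 CPM at 45 min, with no overlap and a difference of -1.09 (SE 0.28). The difference was -1.08 within GC library set 1 and -1.07 within set 2. None of the other 4 tested Notch genes had a negative difference, and the list's median was 0.23.

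Among 13 tested C/EBP and KLF genes, which encode basic leucine zipper and zinc finger transcription factors, the median was -0.39. It was -0.26 with the GC library set in the fit, -0.14 with the GC correction, -0.38 within GC library set 1 and -0.18 within set 2. At an unadjusted p under 0.05, 6 were lower and 0 higher, and 3 lay below all controls, Cebpd, Klf6 and Klf10. The shares over all tested genes were 2.3% lower, 1.26% higher and 0.448% below all controls. Klf10, an early TGF-beta-induced gene, had 77.9, 65.6, 65.9, 63.5 and 62.6 CPM in the controls and 42.0, 50.7 and 45.0 CPM at 45 min. It had the narrowest control spread of the 3, and its difference was -0.55 (SE 0.14). The difference was -0.55 within GC library set 1 and -0.54 within set 2.

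Cebpd had 112, 67.7, 222, 108 and 105 CPM in the controls and 56.7, 62.8 and 57.3 CPM at 45 min, a difference of -1.06 (SE 0.29). Within GC library set 2 the difference was -0.23. Klf6 had 147, 113, 199, 130.0 and 155 CPM in the controls and 99.1, 108 and 81.3 CPM at 45 min, a difference of -0.63 (SE 0.19). Klf2, a factor of quiescence, differed by -1.18 (SE 0.36) and Cebpb, a factor of acute phase and inflammatory genes, by -0.76 (SE 0.30), and both overlapped with the controls. Klf4, named after its values were seen, differed by -0.62 overall and by 0.33 within GC library set 2.

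**Figure D3:**
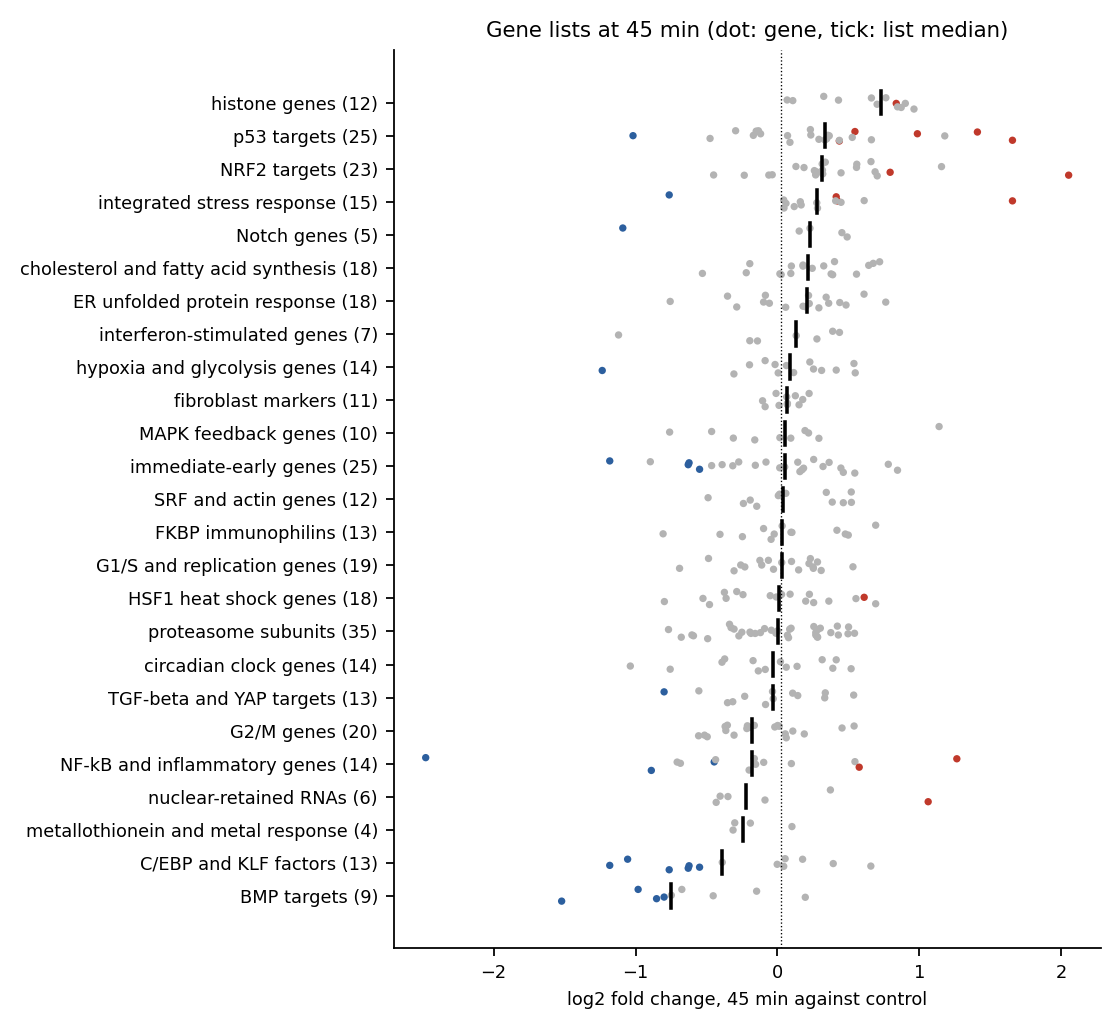
Log2 fold changes at 45 min of the tested members of 25 gene lists, with the number of tested members in parentheses. Dots are genes, red where higher and blue where lower at an unadjusted p under 0.05 and grey otherwise, black ticks are list medians, and the dotted line is the median of all tested genes (0.02). The BMP target median lies at -0.75, the p53 target median at 0.33 and the histone median at 0.73.

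Of 18 tested HSF1 heat shock genes, 9 had a positive difference, the median was 0.01, and only the co-chaperone gene Dnajb1 had an unadjusted p under 0.05 (0.61, SE 0.26). Hsph1, the HSP110 chaperone, had 221 to 404 CPM in the controls and 365 to 402 CPM at 45 min, a difference of 0.20 (SE 0.16). Hspa1b, an inducible HSP70, had 8.97 to 54.4 CPM in the controls and 11.3 to 25.3 CPM at 45 min (-0.80, SE 0.47). Its near-identical neighbour Hspa1a could share its reads, so its value is uncertain. The 18 tested genes of the ER unfolded protein response had 0 members at an unadjusted p under 0.05 and a median of 0.21. Hspa5, the ER chaperone BiP, differed by -0.29 (SE 0.19) and Ddit3, the factor CHOP, by 0.48 (SE 0.36). Without 45-min replicate 3 the Ddit3 difference was 0.08. All 35 tested proteasome subunits overlapped with the controls, the median was 0.00 and no member had an unadjusted p under 0.05. Psmb3, a subunit of the catalytic core, had 38.8 to 109 CPM in the controls and 86.9 to 125 CPM at 45 min (0.42, SE 0.25). The p-values of these genes do not show that their levels were equal.

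Immediate-early genes, which are transcribed within minutes of many stimuli, had a median of 0.05 over 25 tested members, 0 higher and 4 lower at an unadjusted p under 0.05. The shares over all tested genes were 1.26% and 2.3%. The 4 lower genes were Klf2, Klf4, Klf6 and Klf10, which are counted above as well. Btg2 and Atf3 also belong to this list, but the count filter left them out. In the edgeR fit with no filter they differed by 1.79 (unadjusted p = 0.0034) and 1.84 (0.0208). The other members it left out, Arc, Egr3, Fosb and Nr4a3, overlapped with the controls. Egr1 had 56.6, 119, 19.2, 20.7 and 53.7 CPM in the controls and 56.3, 43.8 and 121 CPM at 45 min. The highest value of each group was in GC library set 2, and the difference was 0.45 (SE 0.50). Jun differed by 0.36 (SE 0.18), and Fos was at or under 4.51 CPM in every sample of both groups (-0.90, SE 0.75).

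The NF-kB and inflammatory list had members in both directions. Nfkbia, which encodes the inhibitor IκBα and is itself an NF-kB target, had 42.7, 34.0, 40.7, 40.5 and 38.5 CPM in the controls and 29.7, 30.3 and 26.5 CPM at 45 min, below every control. Its difference was -0.45 (SE 0.15). The chemokine genes Cxcl5 (-2.48, SE 0.77) and Ccl2 (-0.89, SE 0.36) had their highest level in control replicate 3, at 129 and 465 CPM. Without control replicate 3 the difference was -0.41 for Ccl2 and -1.59 for Cxcl5, and Cxcl5 then passed with the GC library set in the fit (-1.57, adjusted p = 0.0384). Ptgs2, the inducible cyclooxygenase, differed by 0.58 (SE 0.21) and Lif, an IL-6 family cytokine, by 1.26 (SE 0.52). Over the 14 tested members 2 were higher and 3 lower at an unadjusted p under 0.05, with a median of -0.18. Among all tested genes 1.26% were higher and 2.3% lower.

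Histone genes, whose canonical transcripts mostly lack poly(A) tails, had the highest median, 0.73, and all 12 tested members had a positive difference. The mean log2 CPM of the list was 3.84, 6.08, 3.14, 3.91 and 4.30 in the controls and 5.1, 4.48 and 6.0 at 45 min. In both groups the library of GC library set 2 was the highest, and the median was 1.0 within set 1 and -0.02 within set 2. The part of library composition in this difference was not tested. Hist1h4i, the only member with an unadjusted p under 0.05, differed by 0.84 (SE 0.32).

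Outside these lists, Rab40c, which encodes an adaptor of a ubiquitin ligase complex, had 4.51 to 9.96 CPM in the controls and 11 to 12.2 CPM at 45 min, a difference of 0.77 (SE 0.24). Cx3cr1, a chemokine receptor of immune cells, was at 0.135 to 0.897 CPM in the controls and 1.42 to 4.79 CPM at 45 min, with as few as 2 counts in a library. Map3k14, the kinase NIK of the non-canonical NF-kB pathway, had 2.95 to 17.8 CPM in the controls and 18.1 to 31.6 CPM at 45 min (1.14, SE 0.39). In the other direction Rpp38, a protein subunit of RNase P, had 5.63 to 12.4 CPM in the controls and 3.91 to 4.73 CPM at 45 min (-1.01, SE 0.28). Trim23, a ubiquitin ligase of the TRIM family, differed by -0.83 (SE 0.24), and Dnm3os, a noncoding host transcript of microRNAs, by -0.90 (SE 0.28). All 6 genes were separated from the controls. Genes outside the lists were named mostly for being separated or for a large change, so this separation was largely set by that choice. None of the 6 passed the adjusted threshold in any of the 28 alternatives.

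The DD is a mutant of human FKBP12, and the 13 tested FKBP immunophilin genes had 0 members at an unadjusted p under 0.05 and a median of 0.03. Fkbp1a, which encodes the cytosolic protein FKBP12, was at 94.7 to 423 CPM in the controls and 150.0 to 406 CPM at 45 min (0.50). Of 13 tested TGF-beta and YAP targets, Smad7 alone had an unadjusted p under 0.05, and the median was -0.04. The 19 tested G1/S and replication genes (median 0.03), 20 G2/M genes (-0.18) and 18 genes of cholesterol and fatty acid synthesis (0.21) had 0 such members. The G2/M median was -0.33 within GC library set 1 and 0.59 within set 2.

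The later samples place these values in time. Differences at 45, 135 and 405 min were each taken against the same 5 controls, so they are not independent of one another. Against the controls 58 genes were called higher (0.564%) and 92 lower (0.895%) at 135 min, and 1027 (9.99%) and 1382 (13.4%) at 405 min. Replicates 1, 2 and 4 at 405 min belong to GC library set 2, and all 135-min libraries to set 1. These differences by group alone therefore mix time with the library set, and the part of each was not tested. Cdkn1a differed by 1.41, 2.29 and 1.83, Mdm2 by 0.44, 2.62 and 1.21, and Trp53inp1 by 0.99, 2.61 and 1.82. Osgin1 differed by 2.05, 3.05 and 3.52, and Sesn2 by 1.66, 1.80 and 1.70. Id3 differed by -1.52, -2.17 and -1.60, Id2 by -0.98, -2.64 and -1.37, Klf10 by -0.55, -1.93 and -0.56, and Cebpd by -1.06, -3.06 and -2.32. Nfkbia differed by -0.45, 0.76 and -0.13, and Ccl2 by -0.89, 1.58 and 0.36.

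The 135-min samples were compared with the 45-min samples directly, in the fit by group. Across all tested genes 19 were higher at 135 min (0.185%) and 25 lower (0.243%), and 13 of the 47 genes followed here were among them, though these were picked for their 45-min values. With the GC library set in the fit 17 of the 47 passed, and with the GC correction 15. Mdm2 was higher at 135 min by 2.18 (SE 0.22, adjusted p = 0.000401), Hmox1 by 2.29, Zfand2a by 1.66 and Trp53inp1 by 1.63. Cdkn1a differed by 0.88 (SE 0.29, adjusted p = 0.459), Osgin1 by 0.99 (SE 0.49, adjusted p = 0.837) and Sesn2 by 0.15 (SE 0.62, adjusted p = 0.971), which did not pass the test. Among lower genes Cebpd fell further by 2.01, Id2 by 1.66 and Klf10 by 1.38, while Id3 differed by -0.65 (SE 0.35, adjusted p = 0.869). Hsph1 was higher by 1.09 and Hspa1b by 2.76 at 135 min than at 45 min. The differences of Nfkbia (1.21), Ccl2 (2.47) and Fas (3.11), which were negative at 45 min and positive at 135 min, passed as well.

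**Figure D4:**
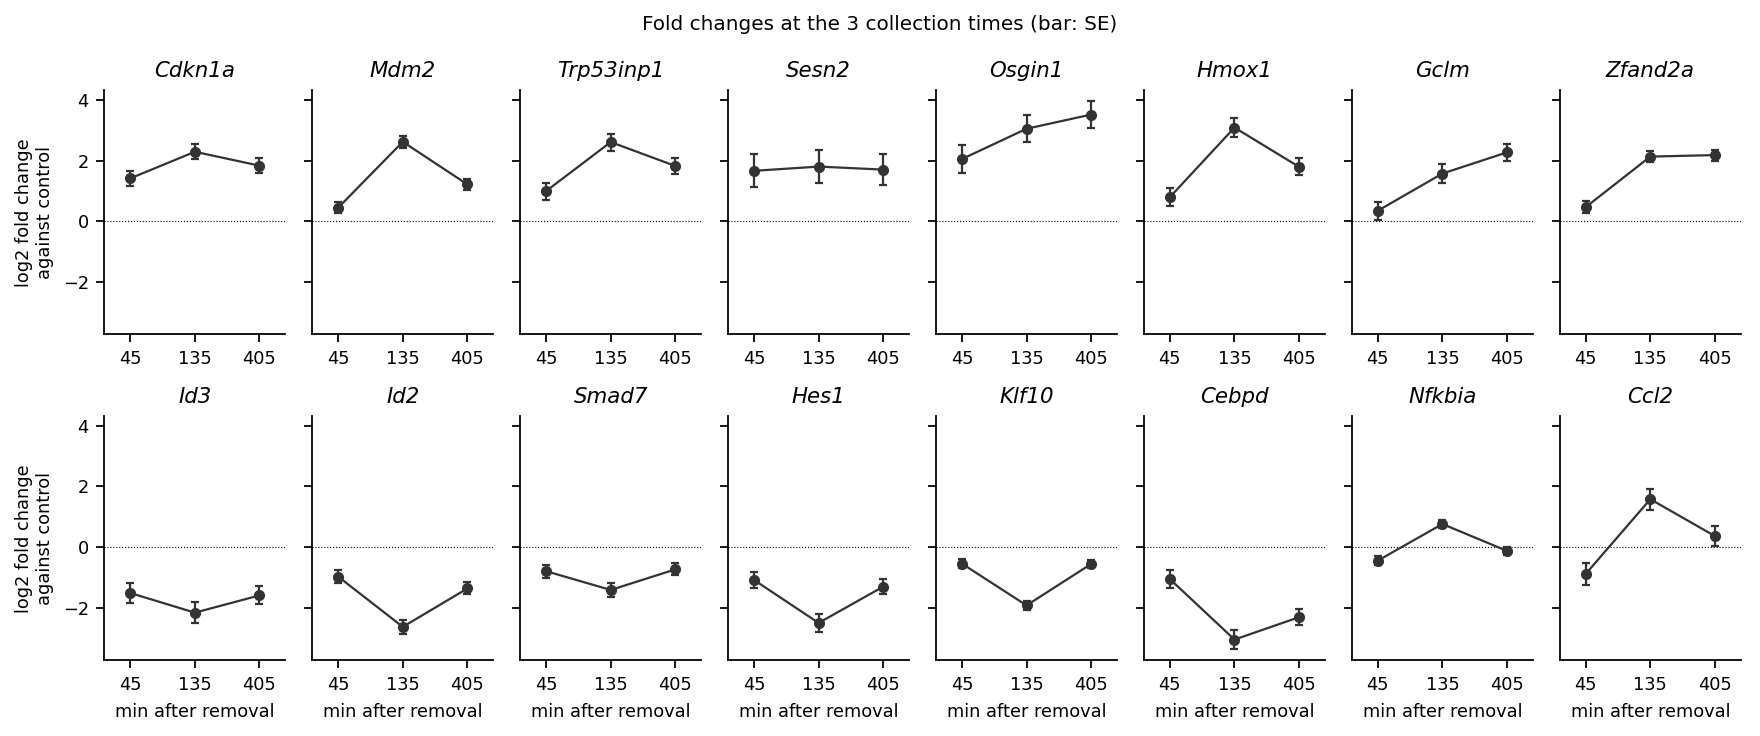
Log2 fold changes of 16 genes against the 5 controls at 45, 135 and 405 min, with SE as bars. The same controls serve all 3 times. GC library set 2 holds replicates 1, 2 and 4 at 405 min and none of the 135-min libraries. Mdm2, Hmox1 and Zfand2a lie below 1 at 45 min and above 2 at 135 min, Cdkn1a, Osgin1 and Sesn2 are above 1 at all 3 times, and Nfkbia and Ccl2 lie below 0 at 45 min and above 0 at 135 min.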

How the data were processed

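Poly(A) RNA was sequenced. The study's methods describe both a ligation protocol and a NuGEN kit for the libraries, the labels name the kit, and whether the libraries of the comparison differ in preparation was not tested. The authors aligned reads to mm9 and quantified them against RefSeq on a commercial platform. The aligner is not given in the sources used here. The read counts deposited by the authors are expected counts, which need not be whole. The RPKM, a standard score (Z score) of the RPKM and a ratio that divides each RPKM by the root mean square, also deposited by the authors, entered no test. Samples were grouped by title.

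Expected counts were rounded and joined by gene identifier. A gene needed 1 count or more in each sample, and the 10276 that met this were fitted over all 15 samples with edgeR 4.0.16 in R 4.3.3 (TMM factors, quasi-likelihood, group as the term), with Benjamini-Hochberg adjustment over the tested genes and a threshold of 0.05. This filter and threshold follow the study's methods. SE is the log2 fold change over the square root of F. CPM are TMM-scaled, and log2 CPM uses a prior count of 2. DESeq2 1.42.0 was an alternative. The scripts were tested on simulated data. The depth of 6652539 to 30258404 counts limits precision for low genes.

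Members, gene lists and tests were chosen with earlier results of these data known. Named genes were the 15 with the smallest p in each direction among separated genes with a mean count of at least 20 in the higher group, the 3 members of each list with the smallest p in each direction, defining members of stress programmes, genes passing with or without the library set, and the 5 largest changes in each direction at an unadjusted p under 0.05. The text gives those that belong to the programmes described and a few others, and says where a gene lies outside this rule. Some genes that the rule names are not reported here.

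A planned split of the libraries at the largest gap on the first principal component isolated control replicate 3, so the planned fits with that split come to leaving that library out. A split by GC slope was put in its place after the data were seen. GC content came from the longest protein-coding transcript of each symbol in GENCODE vM1, annotated on the assembly that mm9 holds, and 95.0% of tested genes had a value. The GC correction used a lowess curve (span 0.3) per sample as an offset. Promoters and their coordinates came from RefSeq on GRCm38.p6.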

Additional observations from a re-analysis of the deposited data

Results flagged for a closer look

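By Dixon's test at the 95% level, a control sample stood apart from the other 4 for 6 of the 76 values checked, and chance flags about 1 in 20 groups. Control replicate 3, the shallowest library, was the lowest for Trp53inp1 (2.36 on the log2 CPM scale), Gclm (4.14), Ddit3 (3.22) and Psmb3 (5.28). Control replicate 2 was the highest for Phlda3 (6.15), and control replicate 1 the highest for Klf10 (6.29).

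The difference between 135 and 45 min passed the edgeR test for 13 of the 47 genes followed, which had been picked for their 45-min values. On the log2 scale the 135-min samples were higher for Trp53inp1 (1.63), Mdm2 (2.18), Fas (3.11), Hmox1 (2.29), Zfand2a (1.66), Nfkbia (1.21), Ccl2 (2.47), Hsph1 (1.09) and Hspa1b (2.76). They were lower for Id2 (-1.66), Klf10 (-1.38), Cebpd (-2.01) and Egr1 (-3.15).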

How the results depend on the processing

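Over 28 alternatives each, the 47 genes followed kept the direction of their 45-min difference in 1305 of 1316 comparisons, and the cause of the exceptions was not tested. Many of these genes were picked for their 45-min values, and each alternative refits samples of the same series. A kept direction was therefore largely set by that choice and is not independent evidence. Within GC library set 2, which holds 1 control and 1 45-min library, the sign turned for Fas (0.78), Klf4 (0.33), Ptgs2 (-0.12), Fos (2.21), Jun (-0.04), Hspa1b (0.34), Hspa5 (0.53) and Hist1h4i (-0.30). Egr1 ranged from -0.11 without 45-min replicate 3 to 0.96 without control replicate 2. Fos ranged from -1.22 to 0.14 when samples were left out, with 0.14 and 0.07 with the GC library set in the fit and without control replicate 3 or 45-min replicate 1. By group alone, leaving out 1 sample moved the difference by over 1.5 times also for Ubb (0.14 to 0.47), Hsph1 (0.08 to 0.26), Hspa1b (-1.12 to -0.51), Hspa5 (-0.42 to -0.16), Psmb3 (0.25 to 0.57) and Cx3cr1 (1.40 to 2.44). The median of the C/EBP and KLF genes moved by more than the spread between replicates in 15 of 28 alternatives. The median of the p53 targets ranged from 0.22 to 0.36 and that of the BMP targets from -0.88 to -0.56 when samples were left out in turn.

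Genes called higher, 0 in the report, were 2 with DESeq2, 3 with the GC library set, 1 with the replicate block and the GC library set, and 2 with the GC offset. Genes called lower, also 0, were 4 with DESeq2 and 1 with the GC library set. Leaving out samples in turn gave 0 in both directions, and with the GC library set in the fit 0 to 4 higher and 0 to 3 lower. The higher count at an unadjusted p under 0.05 (129) was 763 with no filter, 47 with only the 2 groups, 448 with the GC library set, 591 within set 1 and 565 with the replicate block and the set. It ranged from 87 to 1668 when samples were left out, and from 137 to 830 with the set in the fit. The lower count (236) was 469 with DESeq2, 474 with no filter, 63 with only the 2 groups, 542 with the set, 807 within set 1, 140 within set 2 and 896 with the replicate block and the set. It ranged from 77 to 1465, and from 93 to 1078 with the set. Genes above all controls (48) numbered 85 under edgeR's own filter, 242 with no filter and 1231 within set 1, and 67 to 981 when samples were left out. Genes below (46) numbered 1279 within set 1 and 64 to 1115. Leaving out samples, or keeping set 1 alone, can only hold or raise both counts of separated genes. Those rises were therefore set in advance. The BMP median ranged from -0.80 to -0.49 with the set in the fit and samples left out.

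Deviations correlated at -0.11 on average between samples of the same replicate number and 0.028 between others. The control and 45-min pairs numbered 1, 2 and 3 gave 0.17, -0.644 and -0.426. Pairs 2 and 3 join libraries of different GC library sets, and control replicate 2 with 45-min replicate 3, both of set 2, gave 0.705. Because the sets cut across the numbers, whether replicate numbers pair the samples could not be decided. With the number as a replicate block, 0 genes passed and the unadjusted counts were 77 higher and 138 lower. Low depth in control replicate 3 limits genes with few counts there, and a 0 in that library removed Btg2 and Atf3 from the tests. That library had 11459 genes with a count at 6652539 counts, against 15786 genes at 9479272 counts in 45-min replicate 2. It also had the steepest GC slope (-1.374), and the part of depth in its zeros was not tested.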
